A study of Mus musculus with 8 samples.

Results

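The expression of 10 genes of the intermediate cells and pigment of the stria vascularis was examined in whole cochlea of WT mice and of KO mice that lack miR-29a. The genes were Tyr, Dct, Tyrp1, Pmel, Mlana, Slc45a2, Mitf, Ednrb, Kcnj10 and Kcnj13. They were taken by symbol from the 21895 genes of the deposited table, and all 10 were found. Of these, 9 had a mean FPKM of at least 0.5 and were tested, and Tyrp1 did not reach that level.

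Both groups were on the C57BL/6 background, a pigmented strain, bred from heterozygous parents, and both sexes were used. The KO mice carried a homozygous, whole-body deletion of miR-29a (miR-29a-/-), so no cell type was targeted, and the WT mice carried the intact allele. RNA came from whole cochlea, so every value is a mixture of all cell types in the dissected tissue. The sample records give an age of 21 days and the study's methods give 2 months. Each group had 4 libraries, WT1 to WT4 for wild type and KO1 to KO4 for knockout, and the labels do not say whether each came from 1 animal. The p-values therefore measure only the spread between these libraries.

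The stria vascularis is the secretory epithelium of the cochlear lateral wall and produces the potassium-rich endolymph. It has marginal, intermediate and basal cells, and the intermediate cells are melanocytes derived from the neural crest. Their potassium channel KCNJ10 (Kir4.1) is required for the endocochlear potential. Like skin melanocytes, intermediate cells depend on the transcription factor MITF and make melanin in melanosomes with the enzymes of the tyrosinase family.

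The genes were searched for matches to the deleted miRNA and to a motif of MITF. No level of miR-29a itself was analysed here to check the labels WT and KO. MiR-29a-3p, the arm known to repress collagen mRNAs, is shown as the RNA that the KO mice lack, with its seed (bases 2 to 8) in capitals. The mature sequence, from RefSeq (GRCm38.p6), lies at chr6:31062673-31062694 on the minus strand. The letters complementary to that seed, TGGTGCT, were searched in the longest 3′-UTR of each gene as annotated in GENCODE mouse release 21 (GRCm38). They occurred in 1 of the 10 genes, Ednrb, at bases 1099 to 1105 of a 3′-UTR of 2441 bases. Among all tested genes with a 3′-UTR, 2479 of 14837 (16.7%) held them. The Ednrb stretch, with the match in capitals, lies at chr14:103815950-103815979 on the minus strand.
mmu-miR-29a-3p: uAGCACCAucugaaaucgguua
Ednrb 3′-UTR: gcgttctggacaTGGTGCTttttctaaaac

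The E-box CATGTG, a form of the motif that MITF binds, was searched on both strands (as CATGTG or CACATG) in RefSeq promoter windows of 300 bases, from 250 before to 50 after each start (GRCm38.p6). There were 9 windows for 7 of the 10 genes (3 of them for Mitf), and those of Pmel, Mlana and Slc45a2 were not used here. The letters occurred in 1 window each of Tyr, Tyrp1, Dct and Kcnj13, which is 4 of 9 windows, against 4650 of all 32851 windows (14.2%). They were not in the windows of Mitf, Ednrb and Kcnj10. The stretches of 30 bases around each match are shown because the 3 enzymes of melanin synthesis all had one. They lie at chr7:87493516-87493545 on the minus strand for Tyr, at chr4:80834155-80834184 on the plus strand for Tyrp1, at chr14:118052379-118052408 and chr14:118052461-118052490 on the minus strand for Dct, and at chr1:87394824-87394853 on the minus strand for Kcnj13. The first capital is at -21 from the RefSeq start for Tyr, at -46 for Tyrp1 (inside the gene as GENCODE annotates it), at -150 and -232 for Dct, and at -112 for Kcnj13.
Tyr: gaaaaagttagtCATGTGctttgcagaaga
Tyrp1: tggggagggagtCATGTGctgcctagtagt
Dct, nearer match: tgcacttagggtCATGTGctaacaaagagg
Dct, farther match: gcttggctgggaCACATGagcccaataaag
Kcnj13: agcattcttttcCACATGatcagagctaat

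Levels are given as FPKM, fragments scaled to the length of the transcript and to the mapped fragments of the library, which can be compared between genes because they are per length. The places of Kcnj13 and Pmel in the order below are uncertain, because their deposited loci differ from the annotated genes. In WT libraries Dct had the highest mean, 82.3 FPKM, followed by Kcnj10 at 33.6, Mitf at 18.8, Kcnj13 at 12.9, Ednrb at 7.03, Slc45a2 at 4.82, Mlana at 3.45, Tyr at 2.50, Pmel at 1.35 and Tyrp1 at 0.234. In KO libraries the order was the same except that Mlana, at 4.66 FPKM, stood above Slc45a2, at 3.67. Dct was above Kcnj10 in all 8 libraries. Among the WT libraries, the ranges of neighbours in the order overlapped from Kcnj10 down to Tyr, whereas Tyr was above Pmel and Pmel above Tyrp1 throughout. The genes that mark intermediate cells were thus detected, although Tyrp1, an abundant melanosomal enzyme of skin melanocytes, did not exceed 0.384 FPKM in any library.

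Differences between KO and WT were tested with limma on log2(FPKM + 0.1), which understates changes of low genes. Among 14990 tested genes, 5.12% had an unadjusted p-value under 0.05 and 0.00% an adjusted one (Benjamini-Hochberg). Of the 9 intermediate cell and pigment genes tested, 1, Tyr, passed the unadjusted threshold and 0 the adjusted one. Tyr was lower in KO, as were 76 of all tested genes (0.507%) at that threshold, and 691 (4.61%) were higher. After median-ratio scaling these became 361 lower and 402 higher. The 9 genes had a median log2 fold change of -0.37, and all tested genes one of 0.10. A log2 fold change below 0 was seen in 7 of the 9 genes and in 33.5% of all tested genes. That share holds without scaling between libraries. After median-ratio scaling the median of all tested genes was 0.01, that of the 9 genes was -0.47, and 8 of the 9 were below 0. The KO and WT libraries overlapped for all 10 genes, and they did not overlap for 3.50% of all tested genes.

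**Figure D1:**
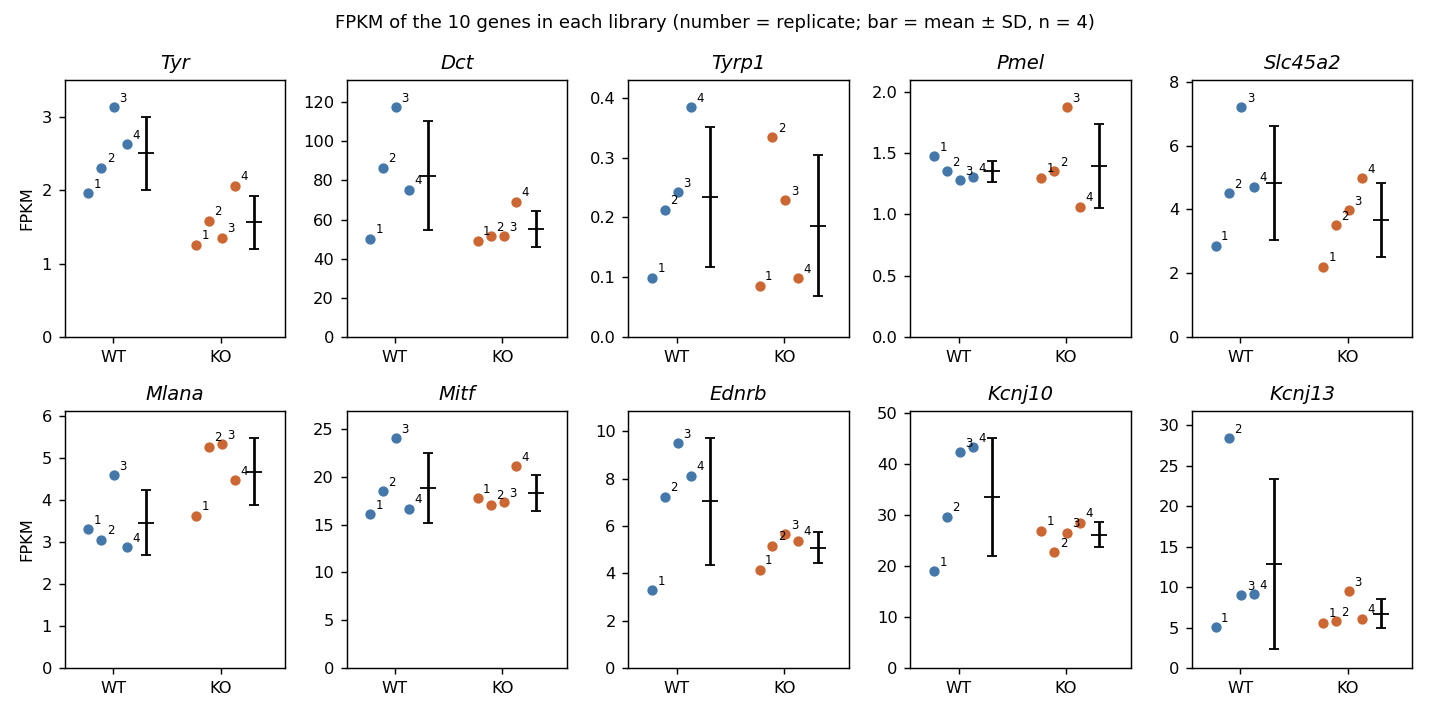
FPKM of each of the 10 genes (vertical axes, each from 0) in the WT libraries (blue) and KO libraries (orange), with the replicate number beside each point and the mean ± SD of the 4 libraries as a black bar. KO and WT points overlap in every panel, and WT3 is the highest library for 5 of the 10 genes.

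Tyr encodes tyrosinase, the rate-limiting enzyme of melanin synthesis. Its levels were 1.96, 2.31, 3.13 and 2.62 FPKM in WT1 to WT4 and 1.26, 1.58, 1.35 and 2.06 FPKM in KO1 to KO4. The lowest WT library, WT1, lay below KO4 and above the other KO libraries. The mean was 2.50 ± 0.496 FPKM in WT and 1.56 ± 0.359 FPKM in KO (SD, n = 4 each). The log2 fold change was -0.65 ± 0.24 (SE, limma unadjusted p = 0.0246), with a 95% interval of -1.20 to -0.11. With Benjamini-Hochberg adjustment over all tested genes the limma p-value was 0.947. The call at the unadjusted threshold was lost without WT3 (limma unadjusted p = 0.0664), WT4 (unadjusted p = 0.0582), KO1 (unadjusted p = 0.0654) or KO3 (unadjusted p = 0.0645), although the log2 fold change stayed between -0.62 and -0.54 in these fits.

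Dct encodes dopachrome tautomerase, which acts after tyrosinase in the melanin pathway. Dct was at 50.2, 86.6, 117.4 and 75.2 FPKM in the 4 WT libraries and at 49.1, 51.4, 51.4 and 69.2 FPKM in the 4 KO libraries. WT2, WT3 and WT4 were above every KO library, and WT1 was within the KO range. The WT mean was 82.3 ± 27.9 FPKM and the KO mean was 55.3 ± 9.31 FPKM (SD, n = 4 each). Its log2 fold change of -0.52 ± 0.26 (SE) had a 95% interval of -1.11 to 0.06 and a Benjamini-Hochberg adjusted p of 0.947 in limma.

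Tyrp1 encodes the third member of the tyrosinase family, a melanosomal protein that stabilises tyrosinase. It was at 0.0989, 0.213, 0.242 and 0.384 FPKM in WT1 to WT4 and at 0.0855, 0.333, 0.228 and 0.0980 FPKM in KO1 to KO4. WT1, KO1 and KO4 were lowest, and both groups covered nearly the same range. Without a filter on low values the fold change on the log2 scale was -0.24 ± 0.37 (SE), with a limma adjusted p of 1 after Benjamini-Hochberg adjustment.

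Among the other melanosome genes, Slc45a2, a membrane transporter needed for melanosome pH, was at 2.86, 4.51, 7.20 and 4.71 FPKM in WT1 to WT4 and at 2.20, 3.51, 3.98 and 4.98 FPKM in KO1 to KO4. WT3 was highest and KO1 lowest, and KO4 exceeded all WT libraries but WT3. KO and WT differed by a log2 fold change of -0.37 ± 0.33 (SE), with a 95% interval of -1.12 to 0.38 and a limma adjusted p of 0.96 (Benjamini-Hochberg).

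Mlana, which encodes the melanosomal protein MART-1, was the gene with the clearest difference in the other direction. Mlana was at 3.30, 3.05, 4.59 and 2.87 FPKM in WT1 to WT4 and at 3.62, 5.26, 5.32 and 4.46 FPKM in KO1 to KO4. All KO libraries were above WT1, WT2 and WT4, but WT3 exceeded KO1 and KO4. The means were 3.45 ± 0.777 FPKM in WT and 4.66 ± 0.799 FPKM in KO (SD, n = 4 each). On the log2 scale the fold change was 0.43 ± 0.21 (SE, 95% interval -0.05 to 0.91), which did not pass the test (limma, Benjamini-Hochberg adjusted p = 0.947). The unadjusted threshold was passed without WT3 (limma unadjusted p = 0.0225, adjusted p = 0.952) or without KO1 (limma unadjusted p = 0.0393, adjusted p = 0.944). Mlana also passed it with both WT1 and WT3 left out (limma unadjusted p = 0.0172, adjusted p = 0.224).

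Pmel encodes the amyloid-forming protein of the melanosome matrix. Its deposited locus, chr10:128698139-128720238, began upstream of the GENCODE gene, chr10:128704195-128720238, and overlapped Cdk2. Its values, from 1.28 to 1.47 FPKM in WT and from 1.06 to 1.87 FPKM in KO, are therefore uncertain. Cdk2 itself ranged from 4.89 to 9.09 FPKM in WT and from 5.45 to 10.5 FPKM in KO. The log2 fold change of Pmel was 0.02 ± 0.23 (SE, 95% interval -0.51 to 0.55), and it was -0.08 after median-ratio scaling and -0.23 after quantile normalization.

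Mitf encodes the master transcription factor of melanocytes and is also used by osteoclasts. Mitf was at 16.1, 18.5, 24.0 and 16.6 FPKM in WT1 to WT4 and at 17.8, 17.1, 17.3 and 21.1 FPKM in KO1 to KO4. All libraries except WT3 and KO4 lay close together. Its log2 fold change was -0.02 ± 0.16 (SE), and the 95% interval of -0.39 to 0.34 was the narrowest among the 9 genes.

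Ednrb encodes the endothelin B receptor, through which endothelin 3 acts on melanoblasts, and it is the gene with the miR-29a seed match shown above. It was at 3.27, 7.23, 9.50 and 8.12 FPKM in WT1 to WT4 and at 4.15, 5.16, 5.64 and 5.37 FPKM in KO1 to KO4. WT1 was the lowest of all 8 libraries and the other WT libraries were above every KO library. Ednrb had a log2 fold change of -0.37 ± 0.32 (SE, 95% interval -1.09 to 0.35), with a limma adjusted p of 0.954 (Benjamini-Hochberg).

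The potassium channel gene Kcnj10 showed the same arrangement of libraries. It was at 19.0, 29.6, 42.3 and 43.3 FPKM in WT1 to WT4 and at 26.9, 22.7, 26.5 and 28.5 FPKM in KO1 to KO4. WT2, WT3 and WT4 were above all KO libraries and WT1 was below them. The WT mean was 33.6 ± 11.5 FPKM and the KO mean was 26.2 ± 2.43 FPKM (SD, n = 4 each). Kcnj10 had a log2 fold change of -0.29 ± 0.26 (SE, 95% interval -0.88 to 0.30), and the limma adjusted p was 0.96 (Benjamini-Hochberg). Kcnj10 is also used by satellite and Schwann cells, which whole cochlea holds.

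**Figure D2:**
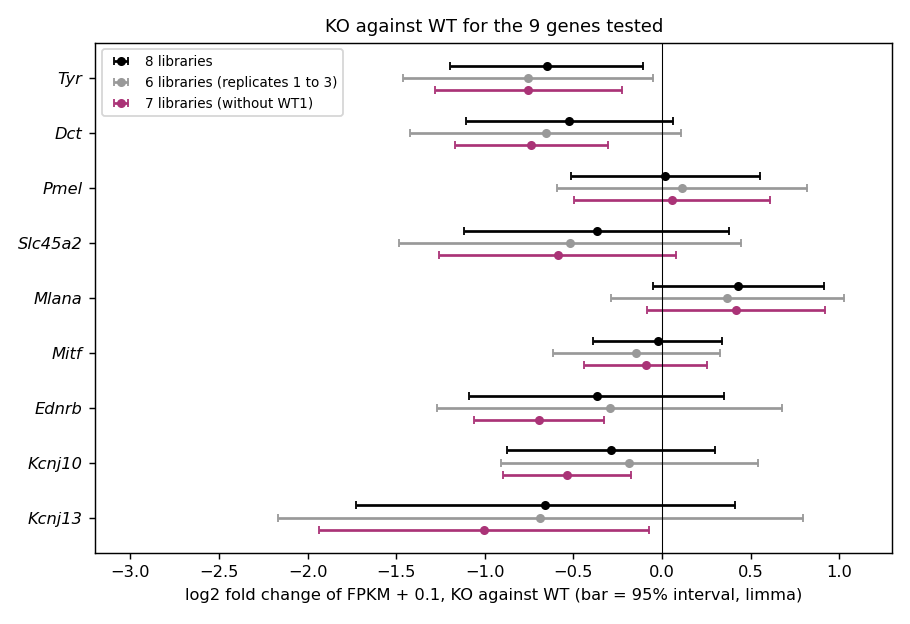
Log2 fold change of FPKM + 0.1, KO against WT (horizontal axis), for the 9 genes tested, with 95% intervals from limma, in all 8 libraries (black), in the 6 libraries with replicate numbers 1 to 3 (grey) and in 7 libraries without WT1 (purple). In 8 libraries the interval of Tyr, -1.20 to -0.11, was the one that did not cross 0, and without WT1 those of Tyr, Dct, Ednrb, Kcnj10 and Kcnj13 did not.

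Kcnj13 encodes the potassium channel Kir7.1, known from epithelia of the choroid plexus and the retinal pigment epithelium. Kcnj13 was at 5.01, 28.4, 8.997 and 9.09 FPKM in WT1 to WT4 and at 5.59, 5.75, 9.46 and 6.08 FPKM in KO1 to KO4. WT2 stood far above all other libraries, and KO3 above the other KO libraries. Kcnj13 had a log2 fold change of -0.66 ± 0.47 (SE, 95% interval -1.73 to 0.41) in 8 libraries and -0.18 without WT2.

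The choroid plexus markers were high in the same libraries. Ttr, the transthyretin secreted by that tissue, was at 2197 FPKM in WT2, 298.8 FPKM in KO3 and 121.6 FPKM in WT4, and between 3.91 and 6.53 FPKM in the other 5 libraries. The summed FPKM of the 6 choroid plexus markers was 2309 in WT2, 330.1 in KO3 and 139.7 in WT4, and 11.5 to 26.7 elsewhere. Most of the sum in WT2, KO3 and WT4 was Ttr itself. Each other marker was also highest in WT2 and next highest in KO3, but WT4 did not come next for all of them. Kcnj13 was at 8.997 FPKM in WT3 and 9.09 FPKM in WT4, where Ttr was at 5.60 and 121.6 FPKM. Of the 6 markers, 0 passed the unadjusted threshold, and their median log2 fold change was -0.55 in 8 libraries and 0.40 without WT2. The part of choroid plexus RNA in the Kcnj13 values was not tested.

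**Figure D3:**
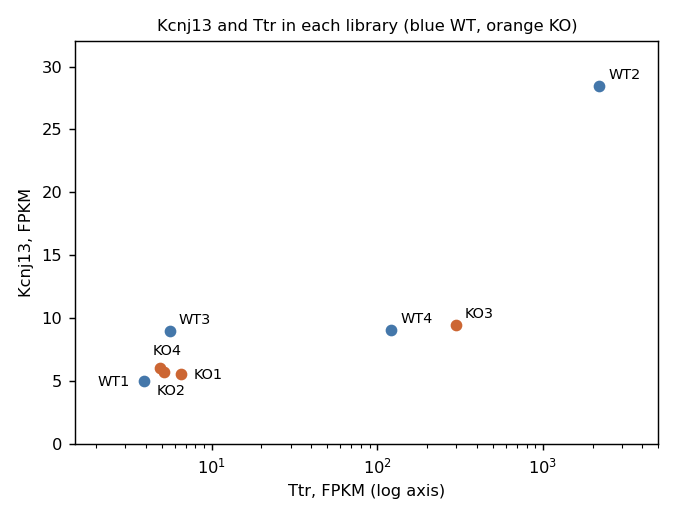
FPKM of Kcnj13 (vertical axis) against FPKM of Ttr (horizontal log axis) in the 4 WT (blue) and 4 KO (orange) libraries. WT2 is at the top right, with 28.4 FPKM of Kcnj13 and 2197 FPKM of Ttr, and 5 libraries lie at the lower left with Ttr between 3.91 and 6.53 FPKM.

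The deposited locus of Kcnj13, chr1:87327047-87450701, was 123655 bases long, whereas the GENCODE gene, chr1:87386363-87394729 on the minus strand, has 8367 bases. The deposited locus covered most of Gigyf2, which was at 22.04 to 30.8 FPKM in WT and at 27.9 to 30.5 FPKM in KO, with 30.8 FPKM in WT2. The libraries were strand-specific, but whether strand was used in counting is not given in the sources used here, so the level of Kcnj13 is uncertain. The other 8 genes had the coordinates of GENCODE, namely chr7:87424771-87493512 for Tyr, chr14:118012790-118052244 for Dct, chr4:80834123-80851719 for Tyrp1, chr19:29697824-29708634 for Mlana, chr15:11000721-11029233 for Slc45a2, chr6:97807052-98021349 for Mitf, chr14:103814625-103844402 for Ednrb and chr1:172341210-172374085 for Kcnj10.

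WT1 and WT3 stood apart within the WT group. WT3 was the highest library for 5 of the 10 genes, and WT1 and KO1 were each the lowest for 4. WT1 was also the library in which Gm8797 took 7.09% of the total FPKM, against at most 0.0918% in any other, while the totals ranged from 249221 to 288695. The relative depth of the libraries, estimated from the steps of values under 0.1 FPKM, was 0.952 to 1.17 of their median. These depths are rough, because the most common ratio to WT1 held 2.21% to 7.13% of the genes compared.

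Without WT1, 5 of the 9 genes were lower in KO at the unadjusted threshold, against 7.40% of all tested genes lower in that fit. The 5 log2 fold changes were -0.70 for Ednrb (unadjusted p = 0.0023), -0.74 for Dct (unadjusted p = 0.0042), -0.54 for Kcnj10 (unadjusted p = 0.0092), -0.76 for Tyr (unadjusted p = 0.0106) and -1.005 for Kcnj13 (unadjusted p = 0.0374). Their limma adjusted p-values were 0.145 to 0.228 (Benjamini-Hochberg), so 0 passed. For Kcnj13, WT3 (8.997 FPKM) and WT4 (9.09 FPKM) were below KO3 (9.46 FPKM), and WT2 was at 28.4 FPKM. The 3 remaining WT libraries were above all KO libraries for Ednrb, Dct, Kcnj10 and Tyr, as they were for 7.17% of all tested genes. For each of these genes WT1 was the WT library not above all KO libraries, so leaving it out fixed this separation in advance. The genes also vary together across libraries, so they are not separate results. Without WT1 the 9 genes had a median log2 fold change of -0.59, against -0.02 over all tested genes, and without WT3 one of -0.16. In the 6 libraries with replicate numbers 1 to 3 it was -0.30, against 0.14, and 1 gene, Tyr, passed the unadjusted threshold. Without WT4 or without KO3, 0 of the 9 genes passed it.

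**Figure D4:**
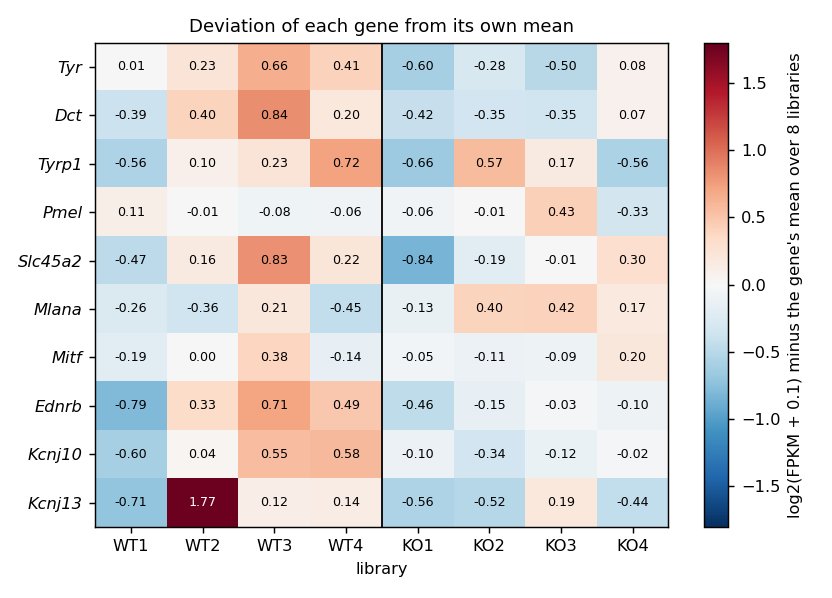
Log2(FPKM + 0.1) of each gene minus its own mean over the 8 libraries, as colour and number, with WT libraries left of the line and KO libraries right of it. WT1 is below the mean for Ednrb (-0.79) and Kcnj10 (-0.60), whereas WT3 is above it for both (0.71 and 0.55), and Kcnj13 in WT2 (1.77) is the largest deviation shown.

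Marker genes of other cells varied between the same libraries. The 12 marrow markers summed to 16247 FPKM in WT1 and to 483.2 FPKM in WT3, with 2938 FPKM in WT2, 4312 FPKM in WT4 and 6314 to 16507 FPKM in the KO libraries. All 12 were tested, and 1, Hbb-bt, an adult beta-globin, was higher at the unadjusted threshold (log2 fold change 1.83, limma unadjusted p = 0.0481, adjusted p = 0.947), although its reads may be shared with its near-identical copy Hbb-bs. At that threshold 4.61% of all tested genes were higher. The Hbb-bt call was lost, and no other gene of the list was called, in 10 of 17 alternatives, including the fits without WT2, WT3, KO1, KO2, KO3 or KO4. The list median was 2.15 in 8 libraries and 0.85 without WT3. Without WT1 it was 3.29, and 12 of 12 were higher, against 12.1% of all tested genes. Among the WT libraries, WT1, the lowest for 4 of the 10 genes, had the highest marrow sum, and WT3, the highest for 5, had the lowest. The part of marrow in the values of the 10 genes was not tested. In whole cochlea, fewer cells of a type and less RNA per cell cannot be told apart.

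In 8 libraries 4.61% of all tested genes were higher at the unadjusted threshold, the background for the lists given here. The osteoclast list, of cells that also use Mitf, had 1 of 6 tested genes higher, Ctsk, the bone collagen protease cathepsin K (log2 fold change 1.72, limma unadjusted p = 0.0186, adjusted p = 0.947). Without KO3 0 of the 6 passed. Its median was 1.39, and 0.72 without WT3, and the summed level of its 8 genes was 16.9 to 308.9 FPKM in WT and 167.1 to 312.0 FPKM in KO. Of 8 macrophage markers, 1 was higher, Cd163, a haemoglobin scavenger receptor (log2 fold change 2.07, limma unadjusted p = 0.0112, adjusted p = 0.947), with a list median of 0.53 and sums of 44.6 to 97.2 FPKM in WT and 51.4 to 106.0 FPKM in KO. Of 7 skeletal muscle markers, 1 was higher, Mylpf, a fast myosin light chain (log2 fold change 2.48, limma unadjusted p = 0.0371, adjusted p = 0.947), and its level of 43.5 FPKM in KO3 compared with at most 4.52 FPKM elsewhere. The muscle list had 0 called genes in 9 of 17 alternatives, including the fits without WT2, WT3 or KO4, and 6 without KO2. Without KO2, 377 of all tested genes were called in either direction. The muscle list is described further for the 8 libraries. Its median was 2.71, and 1.305 without KO3, with sums of 49.2 to 202.2 FPKM in WT and 86.4 to 515.8 FPKM in KO. Pvalb made up most of the sum in every library except KO3. It was at 46.7 to 201.8 FPKM in WT and 82.4 to 209.3 FPKM in KO.

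Marginal cells secrete potassium into the endolymph, and basal cells seal the stria towards the spiral ligament. Of 8 tested marginal cell markers, 8 had a log2 fold change below 0, against 33.5% of all tested genes, with a median of -0.39. After median-ratio scaling 8 were again below 0, and the median of all tested genes was 0.01. Without that scaling 1 was lower at the unadjusted threshold, against 0.507% of all tested genes. It was Bsnd, which encodes the chloride channel subunit barttin (log2 fold change -0.89 ± 0.31 SE, limma unadjusted p = 0.0187, adjusted p = 0.947). Bsnd was at 0.631, 0.934, 1.21 and 0.717 FPKM in WT1 to WT4 and at 0.325, 0.448, 0.372 and 0.521 FPKM in KO1 to KO4. Its groups did not overlap, as was seen for 3.50% of all tested genes. Without WT1, 6 of the 8 were lower, against 7.40% of all tested genes, with a median of -0.66. Without WT3, 0 passed, with a median of -0.25. The summed marginal cell level was 137.5 to 394.4 FPKM in WT, with WT1 lowest and WT3 highest, and 206.9 to 283.7 FPKM in KO. Of 5 basal cell markers, 0 passed, 5 were below 0 and the median was -0.10 (0.08 without WT3), with sums of 256.0 to 593.2 FPKM in WT and 328.4 to 445.0 FPKM in KO.

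Of the other melanosome and pigment transport genes, 22 of 23 were tested, 2 were lower and 0 higher at the unadjusted threshold, and the median log2 fold change was 0.01. Over all tested genes, 0.507% were lower and 4.61% higher. Trpm1, a cation channel of melanocytes, was at 0.555, 2.17, 3.55 and 2.64 FPKM in WT1 to WT4 and at 0.285, 0.805, 0.771 and 0.993 FPKM in KO1 to KO4. Its log2 fold change was -1.37 ± 0.57 (SE, limma unadjusted p = 0.0407, adjusted p = 0.947), and WT1 was within the KO range. Myo5a, the myosin that carries melanosomes, was at 31.7, 38.8, 46.3 and 39.3 FPKM in WT1 to WT4 and at 28.3, 30.9, 25.6 and 35.3 FPKM in KO1 to KO4. The Myo5a log2 fold change was -0.37 ± 0.16 (SE, limma unadjusted p = 0.0442, adjusted p = 0.947), and WT1 was below KO4. Without WT1, 4 of 23 tested genes of this list were lower and 3 higher, against 7.40% and 12.1% of all tested genes. In the 6 libraries 0 passed, and the same was seen without WT2, WT4, KO1, KO2 or KO3.

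Of the regulators and ligand-receptor genes of the melanocyte lineage, 22 of 24 were tested, 2 were higher and 0 lower at the unadjusted threshold, and the median was 0.04. Over all tested genes, 4.61% were higher and 0.507% lower. Irf4, a transcription factor of pigment cells that lymphoid and myeloid cells also use, had a log2 fold change of 1.60 (limma unadjusted p = 0.0172, adjusted p = 0.947), with 0.264 to 2.04 FPKM in WT and 2.23 to 5.40 FPKM in KO. Tfeb, a relative of Mitf that drives lysosomal genes, had a log2 fold change of 0.54 (limma unadjusted p = 0.0172, adjusted p = 0.947), with 8.08 to 14.1 FPKM in WT and 14.7 to 17.6 FPKM in KO. Neither gene's groups overlapped, as was seen for 3.50% of all tested genes. Sox10, the neural crest factor shared by melanocytes and glia, and Kit, the receptor for stem cell factor, were chosen after their values were seen. Sox10 was at 21.7 to 40.8 FPKM in WT and 30.1 to 34.2 FPKM in KO, and Kit was at 11.9 to 23.4 FPKM in WT and 13.8 to 26.5 FPKM in KO, so the groups overlapped for both. The melanocortin receptor gene Mc1r was at 0 to 0.0365 FPKM in all libraries.

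Glia, the retinal pigment epithelium and skin hold cells that use some of the 10 genes. Of 12 Schwann and satellite glia markers, 0 passed the unadjusted threshold, the median was 0.04, and sums were 994.5 to 2907 FPKM in WT, lowest in WT1 and highest in WT3, and 1527 to 1890 FPKM in KO. Without WT1, 12 of the 12 had a log2 fold change below 0, where the median of all tested genes was -0.02. In that fit 2 of the 12 were lower at the unadjusted threshold, against 7.40% of all tested genes. Of 7 retinal pigment epithelium markers, 4 were tested and 0 passed, with a median of 0.07 and sums of 11.99 to 30.2 FPKM in WT and 13.9 to 24.3 FPKM in KO. Of that list, Rpe65 (0.0907 to 0.287 FPKM), Lrat (at most 0.151 FPKM) and Rgr (0 to 0.0268 FPKM) were near 0, whereas Rdh5 was at 7.22 to 13.4 FPKM, Rlbp1 at 2.84 to 8.30 FPKM, Best1 at 0.510 to 1.06 FPKM and Otx2 at 0.653 to 11.7 FPKM. Of 7 skin markers, 1, Krt10, was tested (log2 fold change 0.87), at 0.314 to 4.52 FPKM. The skin sums were 1.15 to 5.35 FPKM over all 8 libraries. Krt14, too low to be tested, was at 0.0453 to 0.320 FPKM in WT and 0.437 to 0.888 FPKM in KO. Its groups did not overlap, which was seen for 3.50% of all tested genes. Krt15 reached 1.39 FPKM, and Flg and Krt1 did not exceed 0.0847 FPKM. Without WT1, 1 of 2 tested skin genes was higher, against 12.1% of all tested genes. After median-ratio scaling, which moved the median of all tested genes from 0.10 to 0.01, and after quantile normalization, the medians of the melanosome, lineage, glia and retinal pigment epithelium lists were below 0.

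**Figure D5:**
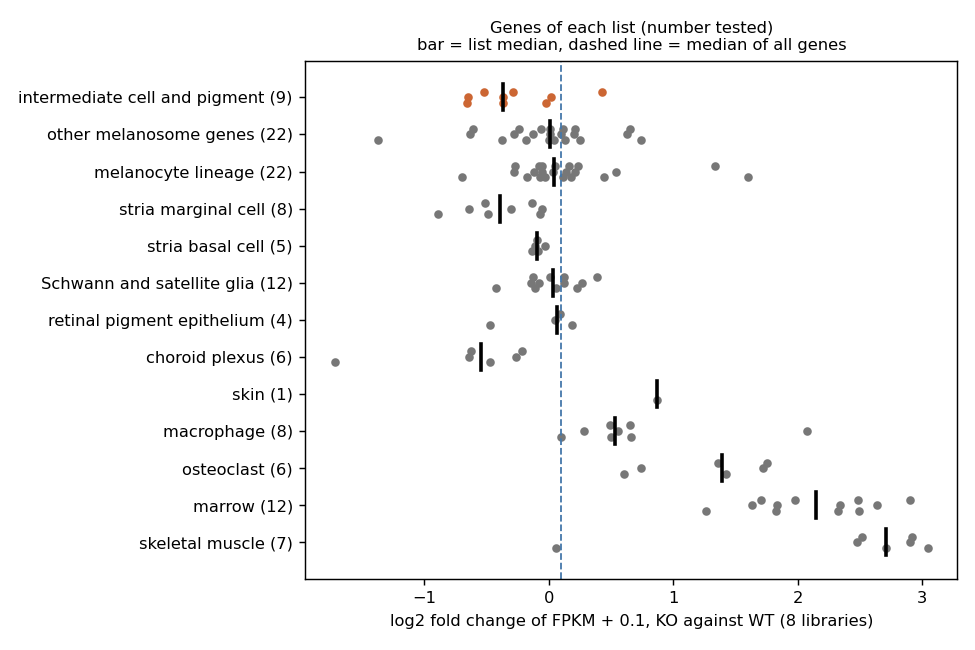
Log2 fold change of FPKM + 0.1, KO against WT in 8 libraries (horizontal axis), of each tested gene of the lists (1 row per list, number tested in brackets), with the list median as a black bar and the median of all tested genes, 0.10, as a dashed line. The 9 intermediate cell and pigment genes (orange, median -0.37) and the 8 marginal cell genes (median -0.39) lie mostly left of the line, and the marrow genes (median 2.15) right of it.

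The 10 genes did not vary as 1 group across libraries. Pearson's correlation of log2(FPKM + 0.1) over the 8 libraries, given as a description because libraries share genotype, dissection and depth, was positive for 33 of the 45 pairs. It ranged from -0.49 for Pmel with Mitf to 0.90 for Kcnj10 with Ednrb. Among Kcnj10, Dct, Tyr, Slc45a2 and Ednrb, chosen after the values were seen, the 10 pairs had correlations of 0.66 to 0.90, with 0.89 for Dct and Tyr. Mlana had correlations of -0.17 with Dct and -0.35 with Tyr.

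The mean log2 level of the 6 pigment genes Dct, Tyr, Tyrp1, Pmel, Mlana and Slc45a2 was 1.39, 1.74, 2.10 and 1.83 in WT1 to WT4 and 1.20, 1.67, 1.68 and 1.61 in KO1 to KO4. KO1 and WT1 were lowest and WT3 highest. The 10 other genes whose log2 levels were most like this mean over the 8 libraries were Sall3, Vmac, Sgpl1, Twf1, Cyp39a1, Tmem126b, Dbndd1, Slc22a2, Npc1 and Prkra, with correlations from 0.98 for Sall3 to 0.96 for Prkra. These are the highest correlations among all tested genes, so high values are found by selection. In the mean Tyrp1, too low to be tested, weighs as much as Dct. A link of these genes to pigment cells was not tested. Sall3 was at 1.27, 1.75, 2.58 and 2.03 FPKM in WT1 to WT4 and at 1.08, 1.57, 1.85 and 1.68 FPKM in KO1 to KO4, with the same lowest and highest libraries.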

How the data were processed

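Total RNA of whole cochlea was extracted with TRIzol and made into strand-specific, ribosomal RNA-depleted libraries, which were sequenced as paired ends. The authors aligned them with Hisat2 and deposited 1 table of FPKM, with a column for each library. The tool behind the FPKM and its annotation are not given in the sources used here. The submitters' processing notes name mm9, whereas the deposited coordinates matched GRCm38: of 21760 gene identifiers found in GENCODE release 21, 19784 had the same coordinates there. No per-sample column was left unused (0), and 27 symbols that had turned into dates were restored from their identifiers. FPKM carry no counts, so no counting error could be given.

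Each gene whose mean reached 0.5 FPKM was fitted with limma 3.58.1 (R 4.3.3) on log2(FPKM + 0.1), with genotype as the factor, a mean-variance trend and two-sided tests. Benjamini-Hochberg adjustment covered all tested genes. The authors tested counts with DESeq2, which was not repeated here because the deposited values are FPKM. The procedure was tested on simulated data. The 10 genes and the lists were chosen with earlier results of these data known. Named were these 10 genes, list genes with an unadjusted p-value under 0.05, list genes near 0, the 10 genes most like the pigment mean, and Gm8797. A gene that the rule names is not reported here. Genes named outside this rule are Gigyf2 and Cdk2, for their overlap, and Hbb-bs, as the copy of a named gene. Others, whose values had been seen, are Ttr, Pvalb, Sox10, Kit, Rdh5, Rlbp1, Best1, Otx2, Slc24a5, Oca2, Krt10, Krt14 and Krt15.

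WT and KO libraries share replicate numbers 1 to 4, which nothing ties to the same litter or day, so the block by number was an alternative. The other alternatives were the libraries with numbers 1 to 3, a pseudocount of 1, no filter or a minimum mean of 1 FPKM, median-ratio scaling, quantile normalization, no variance trend, each library left out in turn, and WT1 and WT3 left out.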

Additional observations from a re-analysis of the deposited data

Results flagged for a closer look

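Among the 38 groups of 4 libraries examined for 19 named genes, 3 had 1 library far from the other 3 (Dixon's test at the 95% level, on log2(FPKM + 0.1)), and chance flags about 1 in 20 groups. Kcnj13 was at 9.46 FPKM in KO3, against 5.59 to 6.08 FPKM in the other KO libraries, and KO3 was also the KO library with the most Ttr. Dct was at 69.2 FPKM in KO4, against 49.1 to 51.4 FPKM in the other KO libraries. Cd163 was at 1.66 FPKM in KO4, against 9.30 to 11.8 FPKM in the other KO libraries and 0.737 to 3.15 FPKM in the WT libraries.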

How the results depend on the processing

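The 9 genes had a median log2 fold change between -0.59 and -0.16 in all alternatives, and 0 of the genes passed the adjusted threshold in any. The number past the unadjusted threshold was 1, and became 2 with median-ratio scaling, 2 with quantile normalization (Tyr and Dct in both), and 0 to 5 with each library left out. With WT1 and WT3 left out it was 6, of which Mlana was higher in KO and the others lower. In that fit 1381 of all tested genes were higher and 1049 lower at the unadjusted threshold. Tyr passed it in 13 of 17 alternatives. For Pmel the log2 fold change was -0.076 after median-ratio scaling, -0.23 after quantile normalization and -0.12 to 0.13 with each library left out. For Mitf it was 0.058 with WT1 and WT3 left out and -0.094 to 0.099 with each library left out. Over all genes, 767 passed the unadjusted threshold, 2430 with WT1 and WT3 left out, and 347 (without KO3) to 2922 (without WT1) with each library left out, with 377 without KO2. The adjusted threshold was passed by 1 gene in the libraries numbered 1 to 3, by 2 without a filter, and by 0 to 1 with each library left out. Of the genes at the unadjusted threshold, 691 were higher and 76 lower, against 402 and 361 after median-ratio scaling and 378 and 547 after quantile normalization. At the unadjusted threshold, the lists had 0 to 7 melanosome, 1 to 4 lineage, 0 to 6 marginal cell, 1 to 3 macrophage, 0 to 6 osteoclast, 0 to 12 marrow and 0 to 6 muscle genes with each library left out, and the melanosome, lineage, marginal cell, osteoclast and marrow counts were highest without WT1. The causes were not tested.

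Whether equal replicate numbers mark paired libraries was examined by correlating how a WT and a KO library of 1 number deviate from the means of their groups. The correlation was 0.419, -0.24, -0.17 and 0.21 for numbers 1 to 4. Libraries of unequal numbers were not compared in this way, so these values cannot decide whether the numbers mark pairs. A replicate block in the fit gave 838 genes at the unadjusted threshold and 0 at the adjusted one, and 1 of the 9 genes, Tyr, passed the unadjusted one. No read counts were used, so values of genes near 0, such as Tyrp1, have an unknown counting error.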

Other observations

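The ratio of Mlana to Dct, chosen after the values of both genes were seen, was 0.0657, 0.0352, 0.0391 and 0.0382 in WT1 to WT4 and 0.0736, 0.102, 0.103 and 0.0645 in KO1 to KO4. A ratio within a library does not depend on scaling between libraries. KO4 lay just below WT1, and the other KO libraries lay above all WT libraries. Slc24a5 and Oca2, a pair of melanosome transporter genes that were chosen after their values were seen, were highest in WT2, at 3.70 and 1.70 FPKM, as was Otx2, a gene of the choroid plexus and the retinal pigment epithelium, at 11.7 FPKM. Of the other retinal pigment epithelium markers, Rdh5 was also highest in WT2, at 13.4 FPKM. Rpe65, Rlbp1, Best1, Lrat and Rgr were each highest in another library. The source of this RNA was not tested.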
